A study of Mus musculus with 2 samples.

Results

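The 90 spots described here were those with the highest levels of Cplx3, Nxph3, Ccn2 and Col5a1, genes known as markers of cortical layer 6b, among 2485 tissue spots of a mouse brain section (3.62% of the spots). For each spot the score was the mean over the 4 genes of log1p(10000 × UMI/spot total), where a UMI (unique molecular identifier) is a counted RNA molecule. The members were the 90 highest scores. The levels of these 4 genes chose the members and are given as a description only.

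The study labelled 2 brain samples from male mice at 6 months of age, 1 of the G2-3 line (A53T alpha-synuclein) and 1 wild type. The labels do not say how many mice stand behind a sample or which promoter drives the transgene. The count matrices, barcode lists and gene lists deposited for both samples were the same byte for byte, with all 2722 spot barcodes shared. They were used as 1 library with no genotype assigned, and no comparison of G2-3 with wild type was made. All comparisons are between spots of that library, which has no replicate, so intervals are exact 95% intervals that cover counting error only and no p-values are given.

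Layer 6b is the deepest and thinnest layer of the cortex, lying between layer 6 and the white matter, and holds neurons that remain from the embryonic subplate. The subplate is among the earliest neuron layers of the cortex to form and takes part in guiding thalamic axons. Surviving layer 6b neurons are mostly excitatory, and genes such as Cplx3, Ccn2, Nxph4 and Nr4a2 are used to mark them. A Visium spot is a small area that can hold several cells, so a level mixes layer 6b neurons with neighbouring layer 6 neurons, glia and vessels, and fewer cells of a type cannot be told apart from less RNA per cell.

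Promoters are shown for Nr4a2, Nmbr and Rai14, 3 genes outside the score whose levels were highest in members with a member neighbour, among the 8 of 12 leading genes with an entry in the promoter table. They are the 250 bases before each annotated start, from RefSeq on GRCm38.p6, written 5′ to 3′ on the gene's strand, with capitals marking a motif found by a letter search. The windows are chr2:57124004-57124253 on the minus strand for Nr4a2, chr10:14759697-14759946 on the plus strand for Nmbr, and chr15:10713541-10713790 and chr15:10714099-10714348 on the minus strand for the 2 promoters of Rai14 (promoter 1 and promoter 2).
Nr4a2: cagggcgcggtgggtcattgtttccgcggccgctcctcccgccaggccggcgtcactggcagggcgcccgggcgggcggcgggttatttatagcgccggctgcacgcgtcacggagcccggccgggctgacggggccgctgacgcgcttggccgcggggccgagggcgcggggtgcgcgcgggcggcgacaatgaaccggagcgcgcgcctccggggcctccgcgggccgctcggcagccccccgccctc
Nmbr: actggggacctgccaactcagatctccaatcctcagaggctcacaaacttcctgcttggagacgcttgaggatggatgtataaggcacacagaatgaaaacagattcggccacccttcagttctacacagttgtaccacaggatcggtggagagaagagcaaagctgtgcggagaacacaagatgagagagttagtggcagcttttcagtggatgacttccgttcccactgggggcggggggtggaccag
Rai14 promoter 1: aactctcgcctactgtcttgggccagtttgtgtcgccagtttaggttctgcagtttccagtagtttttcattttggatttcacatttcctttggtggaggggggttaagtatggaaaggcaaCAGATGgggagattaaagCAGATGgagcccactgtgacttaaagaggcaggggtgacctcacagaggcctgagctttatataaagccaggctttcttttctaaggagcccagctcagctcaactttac
Rai14 promoter 2: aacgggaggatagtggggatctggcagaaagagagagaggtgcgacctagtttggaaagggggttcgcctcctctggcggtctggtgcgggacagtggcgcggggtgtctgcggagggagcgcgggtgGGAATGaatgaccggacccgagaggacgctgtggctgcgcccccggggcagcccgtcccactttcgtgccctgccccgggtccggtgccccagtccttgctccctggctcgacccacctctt
The letters searched, on both strands, were AAAGGTCA (NR4A response element), AGGTGTGA (T-box element), GGAATG (TEAD element) and CAGATG (E-box). Rai14 promoter 1 held CAGATG at positions -128 and -110 from the start, and Rai14 promoter 2 held GGAATG at position -122. Among all 32851 promoters of the table, 14.4% held CAGATG, 12.6% GGAATG, 1.34% AAAGGTCA and 1.12% AGGTGTGA. A match of this kind is a description of the letters and not a binding site.

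Among the genes of the score, Nxph3, which encodes a secreted ligand of alpha-neurexins, was seen in 80 of 90 members, with a median of 3 and at most 20 UMIs. Ccn2, a secreted matrix-associated protein, was seen in 72 members, with a median of 2 and at most 24 UMIs. Cplx3, a complexin that binds the synaptic vesicle fusion machinery, was seen in 71 members, and Col5a1, a chain of type V collagen, in 37. Of the members, 14 had UMIs of all 4 genes, 52 of 3 genes and 24 of 2 genes. The members held 48.7% of all tissue UMIs of Cplx3, 46.0% of Ccn2, 31.8% of Nxph3 and 16.7% of Col5a1. The last 2 members had scores of 0.769 and 0.768, and the next 2 spots outside had 0.766 and 0.763, so the limit falls within a continuous range.

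The place of a spot on the array was not used by the rule, and most members formed an arc inside the outer edge of the tissue (the map of members and spot sets). Of the 90 members, 80 (88.9%, exact interval 80.5% to 94.5%) had at least 1 other member among their 6 array neighbours. Members made up 38.6% of the members' neighbours, against 3.62% of tissue spots. The members fell into 21 patches, of which the largest held 38 spots in array columns 37 to 68 and the next 14 spots in columns 73 to 87. The other patches held at most 5 spots, 10 members stood alone, and 1 patch of 3 spots lay away from the arc.

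**Figure D1:**
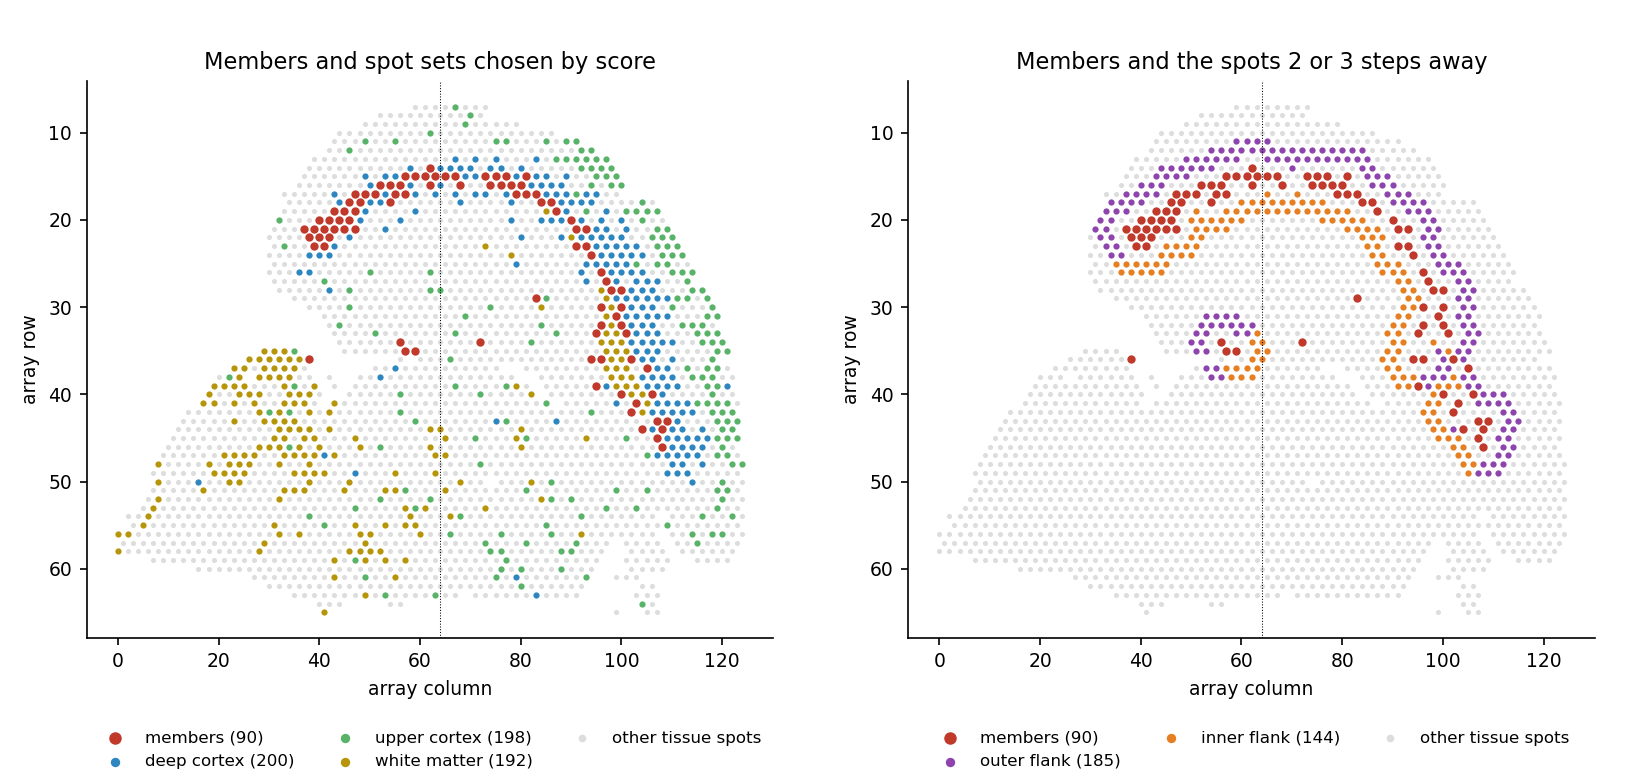
Array positions of the tissue spots, array column against array row, with 1 dot per spot and a dotted line at column 64. The left panel marks the members, the 200 deep cortex spots and the upper cortex and white matter spots that are in no earlier set; the right panel marks the members, the 185 outer flank spots and the 144 inner flank spots. The members run as a thin arc with most deep cortex spots on its outer side in the higher columns.

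Comparison spots were taken in 2 ways. Spots were chosen by score, the 200 non-members highest in Vxn, Myl4, Syt6, Rprm and Hs3st4 (deep cortex), the 200 highest in Cux2, Rasgrf2, Stard8 and Otof (upper cortex) and the 200 highest in myelin genes (white matter). Spots were also chosen by place, after the map had been seen, as the non-members 2 or 3 array steps from the nearest linked member, meaning a member with a member neighbour. The 185 outer flank spots were farther from the middle of the tissue than that member and the 144 inner flank spots nearer. Members had a median of 8950.5 UMIs per spot (range 2498 to 29119), against 10311 in the outer flank, 10776 in the inner flank, 9523.5 in the deep cortex, 3036 in the white matter and 6646 in all 2395 other tissue spots. Counts were summed over each set and given as counts per 1000000 UMIs (CPM), and a gene counted as measured where its expected count in the smaller set was at least 10. That expected count came from the counts of both sets together. A gene rare in the comparison spots was therefore measured only where it was high in members.

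Layer 6b genes that the score did not use and that had enough counts were concentrated on the arc. Of the 9 genes on that list, Nxph4, Nr4a2 and Tmem163 were measured against both flanks, and 3 of 3 were at least 2-fold higher in members than in either, where 2.35% of 8891 genes were so against the outer flank and 2.68% of 8941 against the inner flank (6.14% and 6.76% in either direction). Nxph4, with 7 and 1 UMIs in the flanks, was measured only through its counts in members. The count of 3 of 3 is thus a description and not independent support. The median log2 ratio of the 3 genes was 2.23 (1.85 to 2.61) over the outer flank and 1.06 (0.67 to 1.48) over the inner flank, beside medians of 0.00 and -0.02 over all measured genes. It differed along the arc, at 3.14 and 2.04 for the spots in array columns below 64. In columns from 64 only Nr4a2 and Tmem163 were measured, with medians of 0.35 and -0.24. Nxph4 had too few counts there, so the medians of the 2 sides rest on different genes. Oligodendrocyte genes, a list of 14, were higher in members too, with 11 of 11 measured above the outer flank (median log2 ratio 1.36) and 11 of 11 above the inner flank (0.44). Over the inner flank this held in the higher columns (10 of 10 higher, median 1.08) but not in the lower columns (1 of 8 higher, median -0.18), where the layer 6b ratios were the larger. The part of oligodendrocyte genes in the result was not tested.

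Nxph4, a neurexophilin like Nxph3, had 47 UMIs in 25 members (51.4 CPM), against 7 UMIs in the outer flank (2.95 CPM) and 1 UMI in the inner flank (0.656 CPM). The log2 ratio was 4.12 (2.97 to 5.51) over the outer flank and 6.29 (3.74 to 11.62) over the inner flank, so the gene was low on both sides of the arc. A UMI of Nxph4 was present in 27.8% of members (exact interval 18.9% to 38.2%), in 3.78% of outer flank spots (1.53% to 7.64%) and in 6.50% of white matter spots (3.51% to 10.9%). At an equal depth of 3000 UMIs per spot, the shares were 13.4% of members, 0.954% of outer flank and 5.27% of white matter spots. This left out 5 members, 6 outer flank spots and 100 of the 200 white matter spots, so the last share covers the deeper white matter spots only. The white matter spots, at 22.4 CPM, were thus closer to the members in Nxph4 than the flanks were.

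Nr4a2, which encodes the nuclear receptor Nurr1, had 164 UMIs in members (179 CPM), against 91 in the outer flank (38.3 CPM) and 136 in the inner flank (89.3 CPM). The count per member ran from 0 through a median of 1 to 25, and 49 of 90 members had any. The log2 ratio was 2.23 (1.85 to 2.61) over the outer flank and 1.01 (0.67 to 1.34) over the inner flank, a smaller step on the inner side. Tmem163, a zinc transporter, had 110 UMIs in 37 members (120 CPM), with a log2 ratio of 1.56 (1.15 to 1.97) over the outer and 1.06 (0.64 to 1.48) over the inner flank.

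The other 6 genes of the list had few counts. Pappa2, a protease that cleaves insulin-like growth factor binding proteins, had 12 UMIs in 8 members and 17 in all 2395 other tissue spots. It had 0 UMIs in the deep cortex, outer flank and inner flank spots, so against a floor of 3 counts per set it was at least 8.86-fold higher in members than in the deep cortex, 10.4-fold than in the outer flank and 6.66-fold than in the inner flank. Moxd1, a monooxygenase-like gene, and Drd1, the D1 dopamine receptor, had 5 UMIs each in members, against 15 and 17 in all other tissue spots. Hcrtr2, the orexin 2 receptor, had 8 UMIs in members against 175 in other tissue, a log2 ratio of 0.01 (-1.23 to 1.02) from fewer counts than asked of a measured gene. Lpar1, a lysophosphatidic acid receptor, and Inpp4b, a lipid phosphatase, had 9 and 10 UMIs in members, with intervals over other tissue that spanned 0. Per spot, 66 of 90 members had a UMI of at least 1 gene of the list, with a median of 2 UMIs and at most 31.

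**Figure D2:**
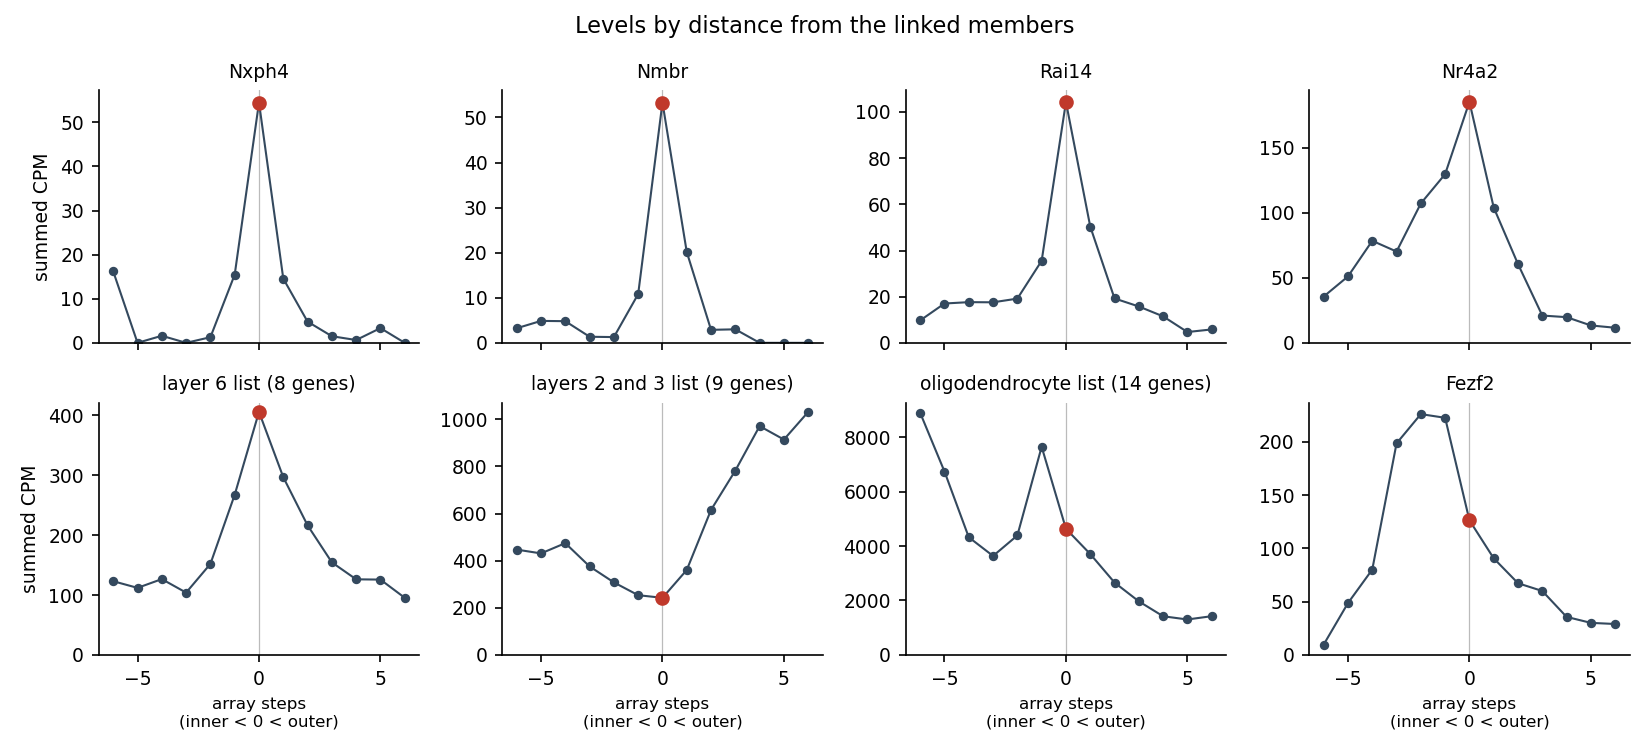
Summed CPM (vertical axis, from 0) by array steps from the linked members (horizontal axis, negative toward the middle of the tissue, positive toward its edge); the red point is the 80 linked members. Nxph4 has 54.5 CPM in the linked members, 15.5 CPM 1 step inward and 14.6 CPM 1 step outward, whereas Fezf2 is highest 2 steps inward.

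Several genes outside the layer 6b list had the same narrow peak (the profile by array steps). Nmbr, the neuromedin B receptor, had 46 UMIs in 26 members (50.3 CPM), against 7 UMIs in the outer flank and 2 in the inner flank, and the members held 43.8% of all tissue UMIs of this gene. Its log2 ratio was 4.09 (2.93 to 5.48) over the outer flank and 5.26 (3.32 to 8.35) over the inner flank. In the linked members Nmbr had 53.3 CPM, against 20.2 CPM 1 step outward, 10.8 CPM 1 step inward and at most 4.87 CPM farther away. Prph, the intermediate filament protein peripherin, had 53 UMIs in members against 12 in the outer and 6 in the inner flank, with log2 ratios of 3.52 (2.60 to 4.56) and 3.88 (2.66 to 5.39). Mapk13, the p38 delta kinase, had 47 UMIs in members against 15 in the outer and 2 in the inner flank, with log2 ratios of 3.02 (2.16 to 3.97) and 5.29 (3.36 to 8.38).

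Rai14, an actin-binding ankyrin repeat protein, had 90 UMIs in 45 members (98.4 CPM), against 41 in the outer flank (17.3 CPM) and 28 in the inner flank (18.4 CPM). It also had the highest interval bound over other tissue among measured genes outside the score, with a log2 ratio of 2.98 (2.61 to 3.33). Sulf1, an extracellular enzyme that removes sulfate groups from heparan sulfate, had log2 ratios of 2.51 (1.88 to 3.17) over the outer and 3.82 (2.76 to 5.09) over the inner flank. Hs3st4, which adds a sulfate to heparan sulfate and marks layer 6, had ratios of 1.94 (1.55 to 2.34) and 1.88 (1.44 to 2.34). Bmp3, a secreted member of the bone morphogenetic protein family, differed between the sides, with 1.26 (0.85 to 1.67) over the outer flank and 3.37 (2.59 to 4.23) over the inner flank.

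**Figure D3:**
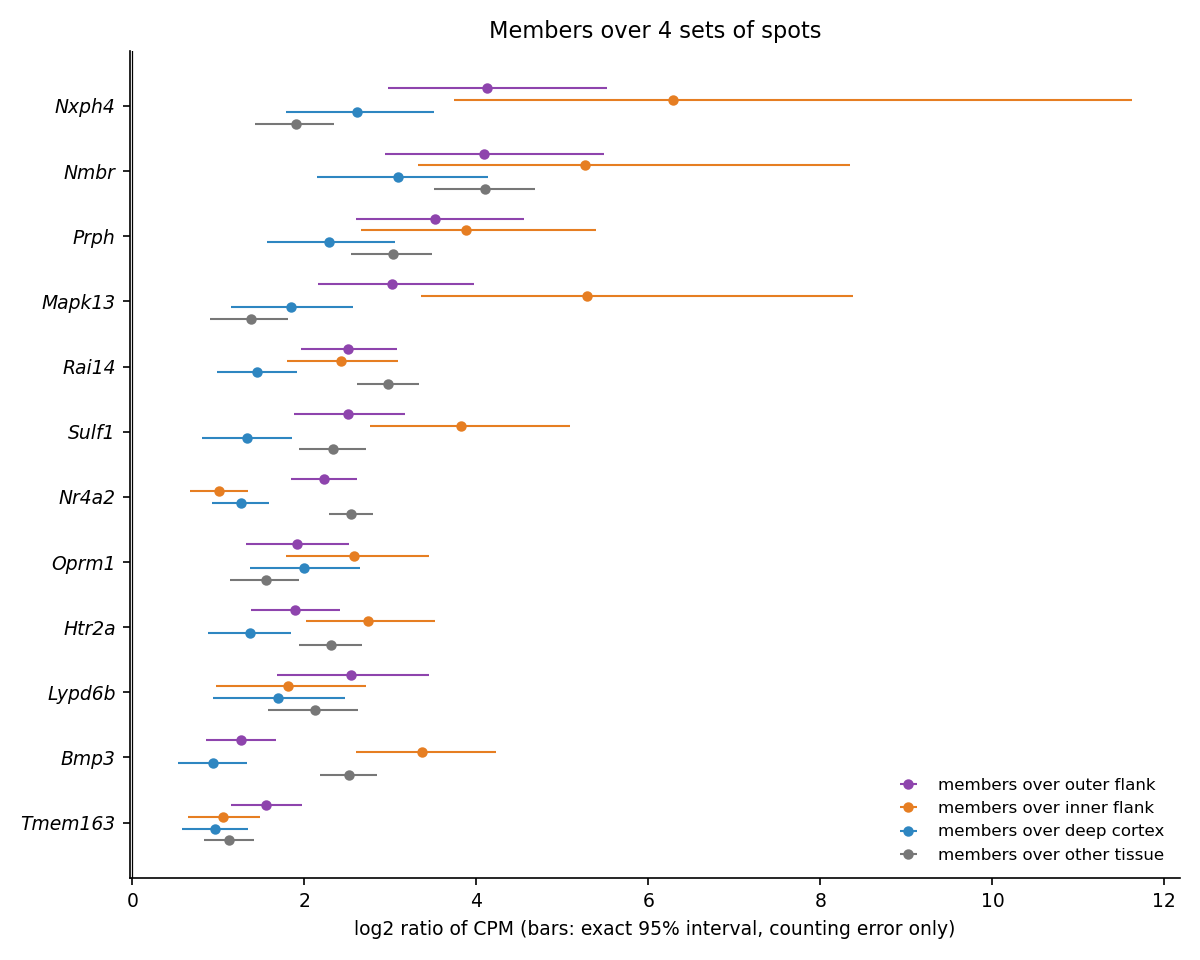
Log2 ratio of CPM (horizontal axis) for 12 genes, members over outer flank, inner flank, deep cortex and other tissue spots; points are ratios and bars exact 95% intervals for counting error only. All 48 points lie to the right of 0, and the widest bars belong to genes with 1 or 2 UMIs in the inner flank; Nmbr and Prph fell short of the expected count over other tissue.

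Receptors for transmitters and peptides were unevenly distributed on the arc. Oprm1, the mu opioid receptor, had 61 UMIs in members (27 spots), against 42 in the outer and 17 in the inner flank, with log2 ratios of 1.91 (1.32 to 2.52) and 2.58 (1.78 to 3.45). Htr2a, the serotonin 2A receptor, had 80 UMIs in members against 56 in the outer and 20 in the inner flank, with ratios of 1.89 (1.38 to 2.41) and 2.74 (2.01 to 3.52). Chrna4, the nicotinic acetylcholine receptor subunit alpha 4, had ratios of 1.38 (1.07 to 1.70) and 1.63 (1.25 to 2.01), and Lypd6b, of a family of nicotinic receptor modulators, 2.54 (1.68 to 3.45) and 1.81 (0.97 to 2.71). In the other direction, Crhr1, the receptor of corticotropin-releasing hormone, had 3 UMIs in members against 71 in the outer and 29 in the inner flank, with ratios of -3.19 (-5.50 to -1.58) and -2.54 (-4.90 to -0.85). Across the 17 measured of 36 amine and acetylcholine receptor genes, 5 were at least 2-fold higher and 2 at least 2-fold lower than in the outer flank, beside 6.14% of all genes past 2-fold in either direction, and the median log2 ratio was 0.02. Over the inner flank, 3 of 20 were at least 2-fold higher and 6 lower, beside 6.76% of all genes, with a median of -0.25, so single receptors differed in both directions. Of 14 measured peptide receptors, 1 was at least 2-fold higher and 4 lower than in the outer flank (median 0.03), and of 12 measured over the inner flank 3 were higher and 3 lower by that much (median 0.06).

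Summed over each list, deep-layer genes were highest on the arc and upper-layer genes lowest on it or 1 step outward. The 8 genes of the layer 6 list summed to 406 CPM in the linked members, against 297 CPM 1 step outward, 267 CPM 1 step inward and 95.4 CPM 6 steps outward. The layer 5 list likewise summed to 1391 CPM in the linked members, against 1192 CPM 1 step outward and 1037 CPM 1 step inward. Single layer 5 genes differed from that sum. Over the inner flank 1 of 4 measured was higher in members and 3 were lower, with a median log2 ratio of -0.78 (-1.34 to -0.26). Over the outer flank 3 of 4 were higher (median 0.38). The 9 genes of the layers 2 and 3 list summed to 242 CPM in the linked members, against 1031 CPM 6 steps outward and 474 CPM 4 steps inward, and 7 of 7 measured genes were lower in members than in the outer flank. Layer 4 genes were lowest 1 step outward, at 61.6 CPM, against 393 CPM 6 steps outward and 143 CPM 2 steps inward. Fezf2, a transcription factor of deep-layer projection neurons, was at 126 CPM in the linked members but 226 CPM 2 steps inward, and Pou3f1, a POU-domain factor, had 14 UMIs in members against 202 in the inner flank (log2 ratio -3.12, -4.01 to -2.33).

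Of the 30 cortical transcription factor genes, 25 were measured against the outer flank, where 15 were higher and 10 lower (median log2 ratio 0.15), so the list moved in both directions. Lmo3, a LIM-only cofactor, had 1.12 (0.91 to 1.33) over the outer and 0.70 (0.49 to 0.92) over the inner flank. Tle4, a co-repressor of layer 6 neurons, had 1.59 (1.02 to 2.16) and 1.79 (1.11 to 2.49). Bhlhe22 had 8 UMIs in members against 109 in the outer and 71 in the inner flank, with ratios of -2.39 (-3.64 to -1.36) and -2.41 (-3.68 to -1.36), and was thus low on the arc itself.

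Relatives of the score genes differed in their pattern. Nxph4, described above, was at least 2-fold higher in members than in either flank, and no other of the 8 measured relatives was. Nxph1, another neurexophilin, had -0.06 (-0.81 to 0.66) over the outer and 0.01 (-0.80 to 0.80) over the inner flank. Cplx1, the main complexin of many neurons, had -0.13 (-0.23 to -0.02) and -0.66 (-0.77 to -0.56). Nrxn3, one of the neurexins that neurexophilins bind as a family, had -0.57 (-0.93 to -0.21) and -0.78 (-1.16 to -0.41). Of the 8, 3 were higher and 5 lower than in the outer flank (median -0.09), and 4 were higher and 4 lower than in the inner flank (median -0.21).

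Neuropeptide genes split evenly over the outer flank, with 6 of 12 measured higher and 6 lower (median log2 ratio 0.10), and 7 higher and 5 lower over the inner flank (median 0.18). Penk, the enkephalin precursor, had 15 UMIs in members against 303 in the outer flank (-2.96, -3.82 to -2.22) and 11 in the inner flank. Sst, somatostatin, had 1986 CPM in members against 1550 CPM in the outer and 1466 CPM in the inner flank, and Npy, neuropeptide Y, had 392.5 CPM against 315.2 and 186.4 CPM.

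A flank difference can come from few spots. C1ql2, a marker of dentate granule cells, had 11 UMIs in members against 720 in the outer flank (log2 ratio -4.66, -5.67 to -3.81), and 626 of the 720 lay in the 22 outer flank spots nearest to the patch away from the arc. For the other genes of this paragraph it was not examined whether the difference came from few spots. Igfn1, an immunoglobulin and fibronectin repeat protein, had 8 UMIs against 242 in the outer flank (-3.54, -4.77 to -2.54). Across the comparison, 3.79% of genes were at least 2-fold lower in members than in the outer flank and 4.07% than in the inner flank. Gpr161, a receptor of the primary cilium, and Pvalb, the calcium-binding protein of fast-spiking interneurons, were lower than in the inner flank, with ratios of -2.93 (-3.53 to -2.39) and -2.41 (-2.85 to -2.01).

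Against all 2395 other tissue spots, 128 of 9210 measured genes were at least 2-fold higher in members (1.39%) and 510 lower (5.54%), or 6.93% in either direction. Of the 4 layer 6b genes measured there, 3 were at least 2-fold higher, with a median log2 ratio of 1.51 (1.12 to 1.88), beside -0.06 over all genes. Nr4a2 had a log2 ratio of 2.54 (2.29 to 2.79) and Nxph4 of 1.90 (1.42 to 2.35). Other leading genes were Vxn (2.30, 2.21 to 2.39), a gene of neuronal differentiation, and Igsf21 (1.83, 1.69 to 1.97), a synaptic adhesion protein. The homeobox genes Irx2 and Barhl1 had 0 UMIs in members against 1074 and 632 in other tissue, which against a floor of 3 counts is at least 16.3-fold and 9.59-fold lower. Tph2, the serotonin-synthesising enzyme, had 1 UMI in members against 1588. Upper-layer genes were lower as a group, with 8 of 8 measured genes of the layers 2 and 3 list below other tissue (median log2 ratio -1.47).

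Upper cortex and white matter lay farther from the members in expression. Over upper cortex, 3 of 3 measured layer 6b genes were at least 2-fold higher (median log2 ratio 3.68, 2.59 to 4.83), where 2.74% of 8988 measured genes passed upward and 5.13% downward (7.87% in either direction). Over white matter, 2 of 4 measured layer 6b genes passed 2-fold upward and 1 downward (median 1.08, 0.39 to 1.83), where 11.5% of 8287 genes passed in each direction (23% in either). The gene that was lower there was Lpar1, also an oligodendrocyte gene, with 9 UMIs in members against 22 in white matter (-1.74, -3.04 to -0.57). Nxph4, seen in 8 of 200 upper cortex and 13 of 200 white matter spots, was measured in both only through its counts in members. Both counts of layer 6b genes are thus a description and not independent support.

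Deep cortex spots served as the nearest set chosen by expression, and members were left out of it by construction. Before that exclusion, 54 of 90 members (60%) were among the 200 spots highest in the deep cortex score, where 8.05% of tissue spots would be, 7 were among the 200 highest in the white matter score and 0 in the upper cortex score. Of 8764 measured genes, 146 were at least 2-fold higher in members than in deep cortex (1.67%) and 177 lower (2.02%), or 3.69% in either direction. Over all columns, the layer 6b list had a median log2 ratio of 1.26 (0.93 to 1.59), with 3 of 3 measured genes higher and 2 of 3 at least 2-fold. Within the column sides the median was smaller, at 0.66 (0.20 to 1.17) in the lower and 0.18 (-0.59 to 0.88) in the higher columns. At least 2-fold higher were 1 of 3 measured genes in the lower and 0 of 2 in the higher columns. The lower columns held 39 of 90 members but 31 of 200 deep cortex spots. Nxph4 had 47 UMIs in members against 17 in deep cortex (2.61, 1.79 to 3.51), Nmbr 46 against 12 (3.09, 2.15 to 4.14) and Nr4a2 164 against 152 (1.26, 0.93 to 1.59).

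The highest ratios over deep cortex included those of smooth muscle, meningeal and blood genes, and the smooth muscle UMIs lay in few members. Acta2, smooth muscle actin, had 132 UMIs in 5 members against 7 in deep cortex (5.38, 4.30 to 6.73), and Tagln, another smooth muscle gene, 47 in 6 members against 2 (5.70, 3.77 to 8.79). Of the members' 198 UMIs of Acta2, Myh11 and Tagln, 193 (97.5%) lay in 4 members, the 3 spots of the patch away from the arc and 1 lone spot. Meningeal genes had a UMI in all but 1 of the 90 members and blood genes in all but 32, with medians per spot of 448 and 181 CPM in members against 416 and 83.4 CPM in deep cortex. Of the 2291 meningeal UMIs in members, 1805 were of 1 gene, Ptgds, so the spread over members is mainly that of Ptgds. Without those 4 members Acta2 was below other tissue, and the genes with the highest interval bounds over deep cortex were Nmbr (3.14, 2.20 to 4.19), Nxph4 (2.67, 1.84 to 3.56), Nrp2 (2.19, 1.70 to 2.69), Prph (2.34) and Oprm1 (2.04, 1.42 to 2.69). Nrp2 is a semaphorin receptor. These ratios pool all columns, whereas 39 of 90 members and 31 of 200 deep cortex spots lay in the lower columns. Within deep cortex, the log2 ratio of lower over higher columns was 2.39 (1.56 to 3.24) for Nrp2 and 1.95 (0.88 to 3.01) for Oprm1. Nmbr and Prph were also higher there in the lower columns (values below). How much of the pooled ratios of Nrp2, Prph and Oprm1 goes with place was not tested. Among meningeal genes, Igf2 had 212 UMIs in 20 members against 56 in deep cortex (3.07, 2.64 to 3.52), but -0.28 without those 4 members, and Ptgds, prostaglandin D synthase, 1805 in 89 members against 1063 (1.91, 1.80 to 2.02), but -0.91 in the 2 largest patches.

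Genes lower in members than in deep cortex included synaptic and activity-related genes. Arc, an immediate early gene, had 159 UMIs in members against 776 in deep cortex (-1.14, -1.39 to -0.89), and 7 of 7 measured immediate early genes were lower, with a median log2 ratio of -0.43 (-0.84 to 0.12), where 4387 of all 8764 measured genes were lower. Intervals lay below 0 for 3 of the 7, and over the outer flank 4 of 7 were higher (median 0.05). Rtn4r, the Nogo receptor, had 43 UMIs against 318 (-1.74, -2.23 to -1.28), and Mef2c, a neuronal transcription factor, 158 against 857 (-1.29, -1.55 to -1.05). Nefm, a neurofilament subunit, had 138 against 752 (-1.30, -1.57 to -1.03). Of 30 postsynaptic genes, 9 were higher and 21 lower, with a median of -0.12, and 0 passed 2-fold. Nrgn, a postsynaptic calmodulin-binding protein, had -0.83 (-0.98 to -0.69). Of 21 measured presynaptic genes, 7 were higher and 14 lower (median -0.10), with Vamp1 at -1.44 (-2.01 to -0.92) and Syt2 at -2.44 (-4.78 to -0.78).

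Glial genes were also compared with deep cortex. All 11 measured oligodendrocyte genes were higher in members, with a median log2 ratio of 0.47 (0.24 to 0.88) and the highest value for Mag (0.89, 0.60 to 1.18), a myelin adhesion protein. The direction turned in the lower columns, where 0 of 8 were higher (median -0.55), and in the 2 largest patches, where 0 of 11 were higher (-0.37). Gfap, an astrocyte filament, had 1.63 (1.31 to 1.95), and C4b, a complement component, 1.78 (1.27 to 2.31), whereas 12 astrocyte genes had a median of 0.03 and 11 microglial genes a median of 0.00. Oligodendrocyte genes summed to 7648 CPM 1 step inward of the arc, against 4635 CPM in the linked members and 3637 CPM 3 steps inward, so myelin genes had a local maximum on the inner side.

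The arc was not uniform along its length. The 39 members in array columns below 64 were compared with the 51 in columns from 64, which differ in depth (medians of 13976 and 6680 UMIs), and of 6119 measured genes 3.95% were higher by 2-fold or more in the lower columns and 3.89% lower (7.84% in either direction). Layer 6b genes outside the score summed to 542 CPM in the lower-column members against 196 CPM in the higher-column members, and oligodendrocyte genes to 2110 against 9946 CPM. Nr4a2 had 129 UMIs against 35 (log2 ratio 1.28, 0.73 to 1.86) and Nxph4 36 against 11 (1.10, 0.10 to 2.23). Among the genes of the score, Ccn2 had 320 UMIs in the lower columns against 72 in the higher, Nxph3 268 against 119, Cplx3 78 against 103 and Col5a1 9 against 68.

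The differences between the column sides with the highest interval bounds included receptors, secreted proteins and meningeal genes. Ccn3, a relative of Ccn2, had 95 UMIs in the lower-column members against 6 in the higher-column members (3.38, 2.20 to 4.86). Next came the meningeal genes Col1a2, with 38 against 1 (4.64, 2.08 to 9.98), and Igf2, with 191 against 21 (2.58, 1.93 to 3.30). Of the 4 members with most smooth muscle UMIs, 3 lay in the lower columns. Without those 4 members Igf2 over deep cortex was -0.28, so most of its UMIs in members lay in them. The ratios of Igf2 and Col1a2 between the sides were not recomputed without them. Oprm1 had 56 against 5 (2.88, 1.57 to 4.56), Htr2a 71 against 9 (2.37, 1.37 to 3.56), Nmbr 41 against 5 (2.43, 1.09 to 4.13) and Zcchc12, a transcriptional co-activator, 185 against 21 (2.53, 1.88 to 3.26). Hs3st4 hardly differed, with 83 against 52 UMIs (0.07, -0.45 to 0.60). Genes lower in the lower columns were led by Myoc, with 20 against 135 UMIs (-3.36, -4.12 to -2.68). Without the 4 smooth muscle members Myoc over deep cortex turned to -0.039, so most of its UMIs in members lay in those 4. The lone spot among them lies in the higher columns, and the Myoc difference between the sides was not recomputed without it. Next were Ighm, an immunoglobulin heavy chain, with 2 against 32 (-4.61, -7.71 to -2.64), and Gpr37, a receptor of oligodendrocytes, with 6 against 44 (-3.48, -5.00 to -2.25). Pvalb, with 7 against 47 (-3.35, -4.74 to -2.20), was followed by myelin genes such as Mobp (-2.36, -2.58 to -2.14). Deep cortex spots differed along the same axis for many of these genes, with Nmbr at 2.61 (0.73 to 4.61), Prph at 3.40 (2.06 to 4.91) and Nrp2 at 2.39 (1.56 to 3.24), so these genes also differed with place outside the members.

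**Figure D4:**
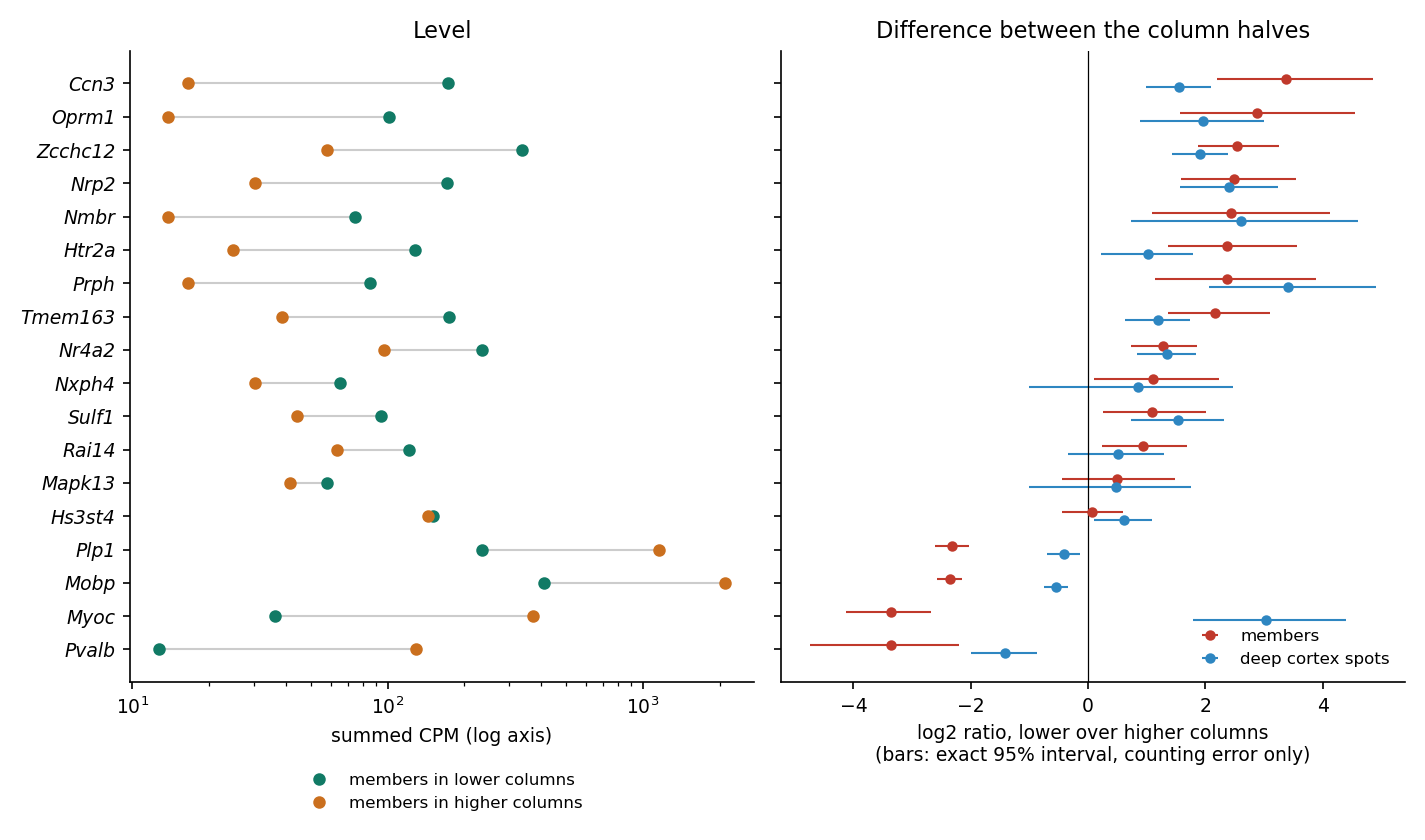
Left, summed CPM on a log axis of 18 genes in lower-column members (green) and higher-column members (orange). Right, the log2 ratio of lower over higher columns in members (red) and in deep cortex spots (blue), with exact 95% intervals for counting error only. Ccn3 and Oprm1 lie farthest to the right in members, and Hs3st4 lies near 0.

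Because members and comparison spots were spread differently over the columns (31 of 200 deep cortex spots in the lower columns), ratios were also taken within each side. Nxph4 over deep cortex had 2.30 (0.95 to 4.01) in the lower and 2.06 (0.74 to 3.37) in the higher columns, and Nmbr had 2.01 (0.84 to 3.41) and 2.18 (0.06 to 4.30). The measured genes of the layer 6b list had smaller medians over deep cortex, 0.66 and 0.18. The second rests on 2 genes, with an interval of -0.59 to 0.88. Over the outer flank, Nxph4 had 4.80 (3.14 to 7.14) and 3.05 (1.29 to 5.16), Rai14 3.82 (2.89 to 4.89) and 1.21 (0.36 to 2.04), and Sulf1 2.39 (1.66 to 3.17) and 2.59 (1.28 to 4.02). Nr4a2 was higher in members than in the inner flank in the lower columns (2.04, 1.48 to 2.65) but had -0.17 (-0.77 to 0.40) in the higher columns. Tmem163 had 1.23 (0.69 to 1.79) over the inner flank in the lower and -0.31 (-1.29 to 0.57) in the higher columns, and Htr2a over deep cortex had 1.15 (0.44 to 1.91) and -0.20 (-1.42 to 0.84). The differences between the sides were not tested. In the higher columns Sulf1 had 16 UMIs, Nxph4 11 and Nmbr 5 in members, below the expected count asked of a measured gene.

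**Figure D5:**
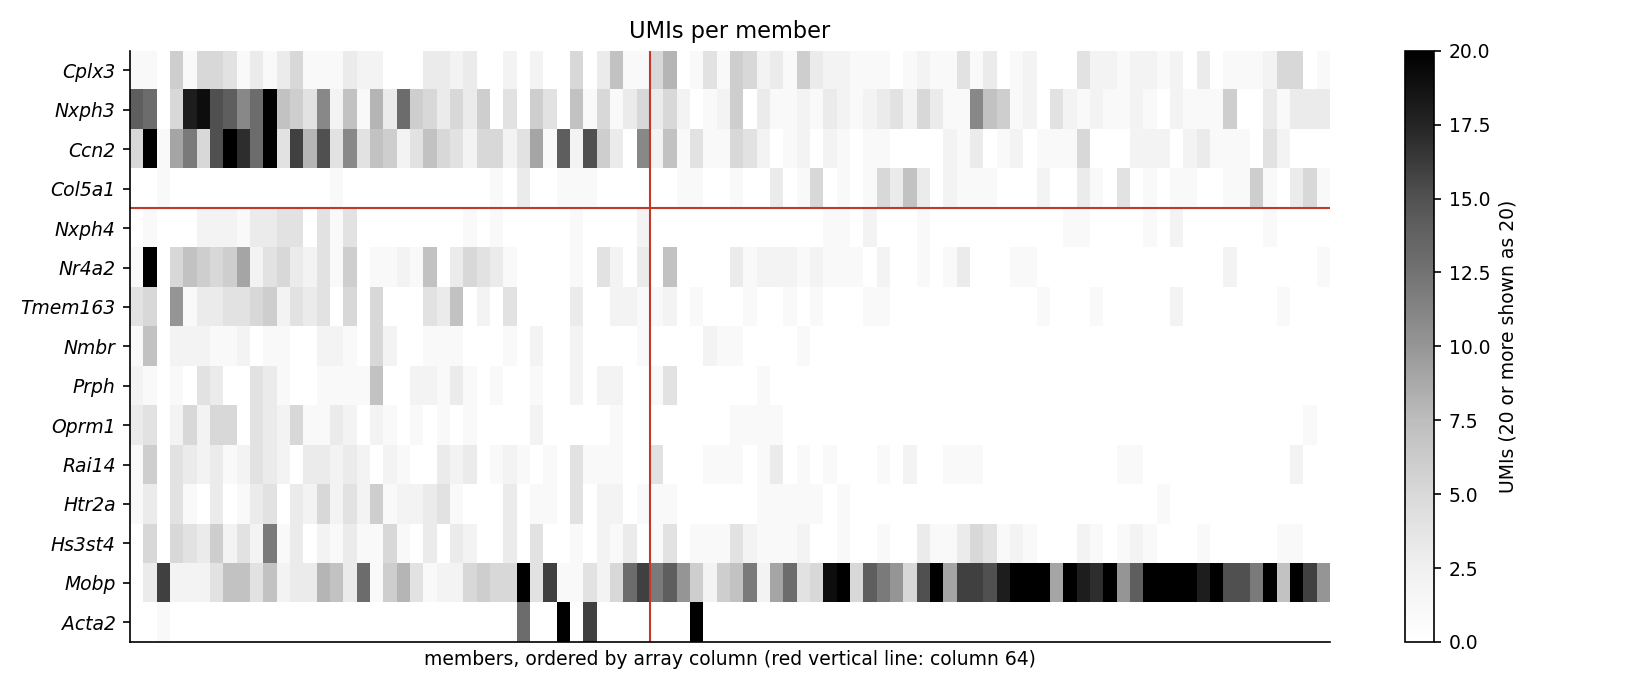
UMIs of 15 genes (rows) in each of the 90 members (columns, ordered by array column), from 0 in white to 20 or more in black; genes of the score are above the red horizontal line and array column 64 is at the red vertical line. Nr4a2, Tmem163 and Oprm1 counts gather to the left of the line, Mobp counts to the right, and Acta2 in 5 members.

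Members also differed by whether they touched another member (the plot of UMIs per member shows single spots). Layer 6b genes outside the score summed to 420 CPM in the 80 linked members against 154 CPM in the 10 members that stood alone and 132 CPM in other tissue. The value of the lone members was near that of the tissue at large, but it rests on few counts, from 52051 UMIs in all, and has no interval. The lone members had 14851 CPM of oligodendrocyte genes against 4635 CPM in the linked members. In the patch of 38 spots the layer 6b list reached 551 CPM, against 252 CPM in the patch of 14 and 134 CPM in the 38 members outside both. The summed layer 6b list outside the score was above the level of other tissue in the 2 largest patches, 52 of the 90 members, and close to it in the other 38. For those 38 the summed list thus adds nothing to the rule, though single genes can differ from the sum. Their layer 6 list was at 431 CPM, against 143 CPM in other tissue.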

How the data were processed

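Expression was measured in a mouse brain section with the probe-based Visium CytAssist assay, which counts ligated probe pairs for 19465 genes at spots of a fixed array. Values are the deposited raw UMI counts of genes in spots, from Space Ranger 3.1.1 per the file headers and mm10 per the submitters' processing notes; no source used here gives the probe set or the settings. The position lists of the 2 samples differed while the count matrices did not, and the wild-type list was used. Of the 90 members, 78 are marked as tissue in both lists and 12 in the wild-type list only. Spots marked as tissue with at least 500 UMIs were kept, which left out 2 of 2487. The 90 members together held 914693 UMIs and the other tissue spots 20083254.

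Counts were summed over each set of spots with Python 3.11.15, numpy 2.4.6, scipy 1.17.1 and pandas 2.3.3, and set sums were compared as CPM ratios with exact conditional (Clopper-Pearson) 95% intervals. A sum of 0 was set to 3 counts. Genes with an expected count of at least 10 in the smaller set were compared, and a gene was called at a log2 ratio of 1 or -1. Genes that chose a set were left out of its counts of called genes. With 1 library there was no test, and intervals cover counting error only. No clustering, doublet caller or deconvolution was run. Shares of spots at equal depth are expected shares after thinning to 3000 UMIs without replacement. The ratio script was checked on simulated data.

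Named genes were all layer 6b genes outside the score, the 15 highest and 10 lowest ratios over other tissue and deep cortex by the interval bound nearest 0, and the 3 genes of each list farthest from 0 over deep cortex, from which the text gives a selection. Further genes named from the lists were chosen after their values were seen. Members and gene lists were chosen with earlier results of these data known. The flank sets, the comparison along the array columns, the genes named from either and the 4 subsets of members in the closing section were added after seeing the data. Promoter windows come from RefSeq on GRCm38.p6.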

Additional observations from a re-analysis of the deposited data

Results flagged for a closer look

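Spots that the wild-type position list does not mark as tissue also held counts of the genes of the score. The 235 such spots had 106 UMIs of Cplx3, Nxph3, Ccn2 and Col5a1 in all (12, 17, 62 and 15 UMIs), or 152 CPM, against 138 CPM in the tissue spots. Of these 235 spots, 119 are marked as tissue in the position list deposited for G2-3. They entered no comparison.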

How the results depend on the processing

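Depth limits genes with few UMIs, and with 1 library there is no measure of the spread between animals or sections. No paired analysis was possible because both samples hold the same counts and no test was made. Of 2015 gene values under the alternatives, for 118 genes, 1731 stayed within the counting interval, 249 left it and 35 called values changed sign. The member subsets and both flank comparisons were added after seeing the data, and the causes of the changes were not tested. For the 78 members marked as tissue in both position lists, the layer 6b medians were 1.54 over other tissue, 1.37 over deep cortex, 2.33 over the outer flank and 1.13 over the inner flank, and the oligodendrocyte median over deep cortex was 0.25 (-0.02 to 0.62).

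Counts of genes past 2-fold depended on the expected count asked. Over other tissue they were 1196 at a minimum of 3 and 272 at 30 (638 at 10), over deep cortex 923 and 92 (323), over the outer flank 1182 and 229 (546), and over the inner flank 1315 and 248 (604). In the higher columns alone they were 345 over other tissue, 201 over deep cortex and 268 over the outer flank. For all 90 members against the 90 highest deep cortex scores the count was 511. The median of layer 6b genes over other tissue (1.51) was 2.07 for the 60 highest scores, 1.03 for the 120 highest, 2.08 in the lower and 0.34 in the higher columns, 0.77 at a minimum of 3, 0.96 as a mean over spots and 2.10 in the 2 largest patches. Over deep cortex (1.26) it was 0.86 for the 120 highest scores, 0.85 with a score without Ccn2, 0.66 in the lower and 0.18 in the higher columns, 1.77 against the 90 highest deep cortex scores and 1.59 in the 2 largest patches. Over the outer flank (2.23) it was 1.75 with a score without Cplx3, 3.14 in the lower and 0.35 in the higher columns, and 1.62 as a mean over spots. Over the inner flank (1.06) it was 2.04 in the lower columns and turned to -0.24 in the higher. In the higher columns the medians over deep cortex and both flanks rest on 2 measured genes, without Nxph4. Oligodendrocyte genes over deep cortex (0.47) had 0.24 without Cplx3, 0.93 without Ccn2, 0.13 in spots of at least 5000 UMIs, 1.36 in the higher columns, 0.89 as a mean over spots, and turned to -0.55 in the lower columns and -0.37 in the 2 largest patches. The share of members with a member neighbour (88.9%) was 78.9% without Cplx3, 78.9% without the log and 97.4% in the lower columns.

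Most sign changes were in vessel, meningeal and blood genes. Acta2 over other tissue was -0.79 for the 60 highest scores, -5.21 without Ccn2, -3.097 in the 2 largest patches and -5.06 without the 4 smooth muscle members. Without those 4 members Acta2 was -3.89 over the outer and -4.67 over the inner flank, Myoc -0.039 and Igf2 -0.28 over deep cortex, Mgp -0.13 and Tpm2 -0.67 over deep cortex, and over the outer flank Tpm2 was -0.83 and Myoc -1.81. Without Ccn2 in the score, Acta2 over the inner flank was -4.55, Tpm2 over the outer flank -0.31, and over deep cortex Igf2 was -0.44, Mgp -0.79 and Tpm2 -0.33. In the 2 largest patches, Igf2 was -0.52, Mgp -0.49, Hbb-bs -0.34, Ptgds -0.91 and Hba-a2 -0.49 over deep cortex, Tpm2 -2.03 and Myoc -3.89 over the outer flank, and Acta2 -2.70 over the inner flank. Myoc over the outer flank was -0.69 without Cplx3, -0.62 without Col5a1, -1.003 in the lower columns and -0.78 without lone members, and over deep cortex -0.31 in the lower columns, where Hcrtr2 was -0.22. In the higher columns Tmem163 was -0.79 over other tissue, -0.19 over the outer and -0.31 over the inner flank, and Nr4a2 -0.17 over the inner flank.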
